A study of Macaca mulatta with 4 samples.

Results

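Oligodendrocytes with myelin gene transcripts were rare in the late-gestation fetal rhesus macaque cerebellum, and 126 barcodes of 32587 with at least 500 detected genes were assigned to them by a rule on 4 genes. A barcode, the tag that marks the RNA of 1 captured nucleus, was a member when it held at least 5 unique transcripts (unique molecular identifiers, UMIs) of MBP, at least 1 of MAG or MOG, and at most 1 of PDGFRA. MBP, MAG and MOG encode myelin proteins, and PDGFRA encodes the growth factor receptor of oligodendrocyte precursors. Members were thus chosen by the measured UMIs of these 4 genes in the same nuclei, and the levels of the 4 genes and every contrast of levels in members with those in the remaining 32461 barcodes are given as a description, with no test. Between members and the remaining barcodes, only the difference of the LPS effect was tested.

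Nuclei came from flash-frozen cerebellar hemispheres of 4 Macaca mulatta fetuses, with 1 library for each fetus. The control group held a female and a male fetus at 130 days of gestation with no intervention. The LPS group held a male fetus at 133 days and a female fetus at 131 days, after 1 mg of lipopolysaccharide, a bacterial cell wall component that causes inflammation of the fetal membranes, was given into the amniotic fluid 5 days before delivery. With 2 fetuses in each group, the fetus was the replicate and nuclei of 1 fetus were not, and gestational age and exposure cannot be told apart. Values for the 4 libraries are given throughout in the order female control, male control, male LPS, female LPS.

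Oligodendrocytes arise from PDGFRA+ precursors, pass through a premyelinating stage marked by BCAS1, ENPP6 and GPR17, and then wrap axons in a lipid-rich membrane compacted by MBP. In the cerebellum they populate the white matter, where they ensheathe the axons of Purkinje cells and the afferent fibers. Late products of the lineage such as MOBP, OPALIN and MOG accumulate as sheaths mature, while precursor and premyelinating transcripts are lost.

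The markers outside the rule matched the label of mature myelinating oligodendrocytes in part of the members. MOBP, a late myelin protein, was detected in 79 of 126 (62.7%). BCAS1, a premyelinating marker, was also detected in 96 of 126 (76.2%), and GPR17, a receptor that closes off with maturation, in 1, 0, 3 and 0 members of the 4 libraries. Members are therefore called MBP+ MAG/MOG+ oligodendrocytes below.

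The libraries held 61665690, 34282015, 56935290 and 41642819 UMIs over all barcodes, and 9256, 8621, 7805 and 6905 barcodes passed the 500-gene limit. Members were deeper than the other barcodes in every library, with medians of 7690, 3154, 3742 and 8394 UMIs against 4504, 1880, 2295 and 4061. The female libraries thus carried more UMIs per member than the male ones in both groups. Between 16 and 22 barcodes were shared by any pair of libraries and 0 of these were members. The Scrublet doublet caller marked 0, 0, 5 and 0 members. In the male control and male LPS libraries its automatic limit marked 0 and 0.0256% of barcodes, so the median limit of the female libraries was used there. Free RNA, estimated from barcodes with 1 to 100 UMIs, was estimated at 6.48, 11.0, 20.1 and 10.5% of the members' UMIs, and from droplets with over 100 and up to 400 UMIs at 0, 0, 11.5 and 0%. By both estimates it was largest in the male LPS library.

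The rule found 20, 17, 77 and 12 members. Their share of barcodes was 0.216% in the female control (exact Clopper-Pearson 95% interval, 0.132 to 0.334), 0.197% in the male control (0.115 to 0.316), 0.987% in the male LPS library (0.779 to 1.23) and 0.174% in the female LPS library (0.0898 to 0.303). The male LPS share lay above the other 3, whose intervals overlapped, and the female LPS share was the lowest of the 4. These intervals cover counting error only. The mean share was 0.580% ± 0.575 (SD, n = 2) with LPS and 0.207% ± 0.0134 (SD, n = 2) in controls, a log2 ratio of 1.49 that was not beyond the spread between fetuses (two-sided exact permutation test, p = 1.00, with 0.33 the smallest p that 2 against 2 allows). The log2 ratio of LPS to control was 2.32 between the males and -0.31 between the females. Without the male LPS library it was -0.25, so 1 library set its direction.

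**Figure D1:**
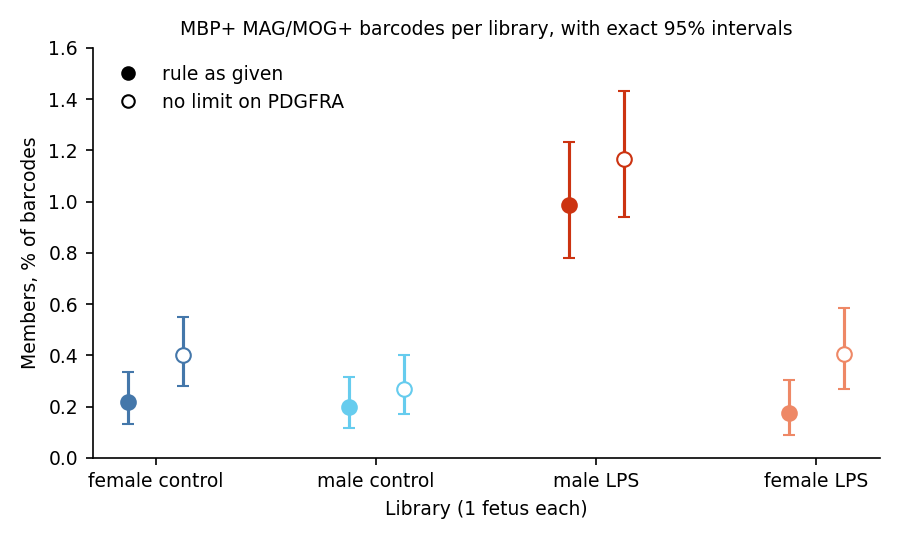
Share of barcodes that were members, in percent, for each of the 4 libraries (1 fetus each), under the rule as given (filled points) and with no limit on PDGFRA (open points); bars are exact 95% Clopper-Pearson intervals of counting error. The male LPS library stands at 0.987% and the other 3 between 0.174% and 0.216%.

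The PDGFRA limit removed 17, 6, 14 and 16 barcodes that met the rest of the rule and had left 20, 17, 77 and 12, so its reach was widest in the female libraries. Of these, 12, 5, 11 and 9 held only 2 to 3 PDGFRA UMIs. They had medians of 10038, 5664, 6838 and 9750 UMIs and of 112, 66.5, 37.0 and 114 MBP UMIs. A PDGFRA UMI was also present in 64.8, 34.3, 29.9 and 74.7% of the barcodes outside the rule, with the 2 highest shares in the female libraries. Dropping the limit gave shares of 0.400, 0.267, 1.17 and 0.406% and a log2 ratio of 1.24 (exact permutation p = 0.33), with 0.02 between the females and 2.13 between the males.

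MBP, an intracellular protein that compacts the membrane layers of myelin, chose the members and varied widely among them. Its lowest, median and highest counts were 5, 86.0 and 211 UMIs in the female control, 5, 43.0 and 86 in the male control, 7, 77.0 and 378 in the male LPS library and 5, 45 and 187 in the female LPS library. Scaled to 10000 UMIs of the nucleus, the medians were 102, 143, 202 and 49.6. The female LPS library had the lowest median and the male LPS library the highest, with ranges that overlapped in all 4. MAG, a membrane protein facing the axon, and MOG, a surface protein of the outermost lamella, were both detected in 14, 9, 58 and 7 members. Just inside the MBP limit, at 5 or 6 UMIs, lay 4, 1, 0 and 2 members, and just outside it, at 3 or 4 UMIs, lay 2, 4, 11 and 4 barcodes that met the other conditions.

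**Figure D2:**
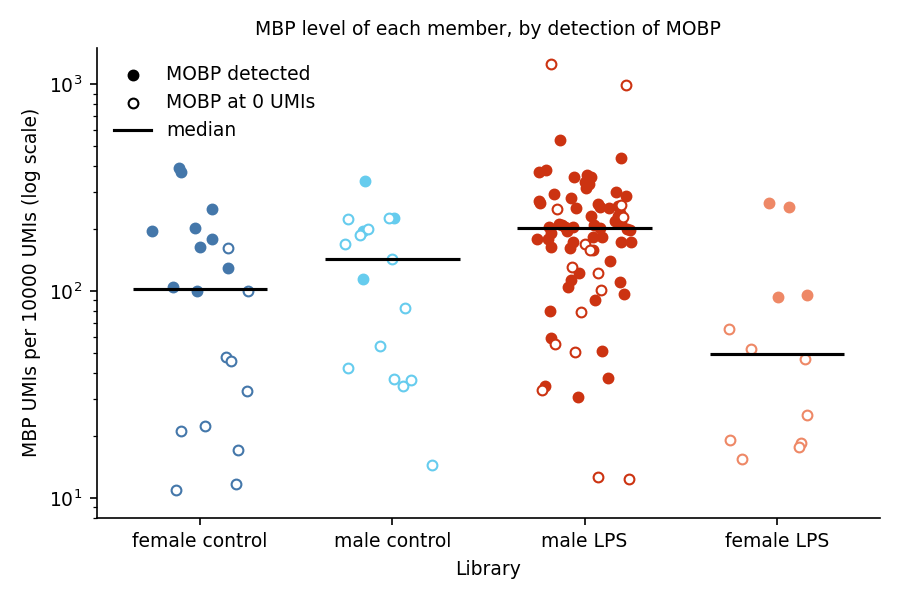
MBP UMIs per 10000 UMIs of the nucleus (log scale) for each member, by library, with bars at the medians (102, 143, 202 and 49.6); filled points held a MOBP UMI and open points held 0. Members without MOBP lie mostly in the lower part of the female libraries and are spread more widely in the male ones. The highest value of the male LPS library (1253) belongs to a member with 0 MOBP UMIs.

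Members were a mixture of late and premyelinating profiles, and the mixture differed between libraries. MOBP was detected without 5 or more BCAS1 UMIs in 3, 4, 46 and 2 members, which was 15, 23.5, 59.7 and 16.7%. The reverse, at least 5 BCAS1 UMIs without MOBP, was found in 6, 11, 11 and 5 members, or 30.0, 64.7, 14.3 and 41.7%. Both features were present in 7, 0, 15 and 2 members and neither in 4, 2, 5 and 3. The male LPS library was thus made mostly of MOBP+ BCAS1-low nuclei, and the male control mostly of BCAS1+ nuclei without MOBP. MBP was higher in the first class in every library, with medians of 203, 209, 204 and 261 per 10000 UMIs against 47.0, 82.8, 122 and 46.8 in the second. The second class was deeper in every library, at medians of 7698, 3811, 4136 and 9181 UMIs against 6418, 2735, 3297 and 6932, so depth moved with this split and its part was not tested.

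Across genes, levels were summed over the members of each library, scaled to UMIs per 1000000 UMIs of the sum (CPM), and set against the sum over all other barcodes as log2 ratios with 1 added to both. Of 2711 genes with at least 50 UMIs over all members, 303 (11.2%) were at least 1 log2 unit higher in members in 4 of 4 libraries and 173 (6.38%) were at least 1 lower. The limit of 50 UMIs was applied to the members themselves and so favours genes that are high in them. Levels below are CPM, with introns counted and without scaling to gene length, and so are compared between groups and not between genes.

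The genes of the myelin membrane stood out first. Of 15 listed structural genes, all were in the files, 3 belonged to the rule, 7 of the remainder passed 50 UMIs, and 6 of those 7 were higher in every library, MOBP, CLDN11, OPALIN, PLLP and MAL among them. MOBP stood at 1191, 242, 1532 and 1021 against 2.94 to 13.3, with the male control lowest. CLDN11, which forms the tight junctions that seal myelin, stood at 676, 379, 371 and 688 against 4.43 to 11.7. OPALIN, a transmembrane glycoprotein of late oligodendrocytes, was lower in the male control, at 227, 60.6, 194 and 107. PLLP, a proteolipid of myelin rafts, was highest in the male LPS library, at 127, 121, 298 and 118. CNP, an enzyme of noncompacted myelin, and ERMN, a cytoskeletal protein of late oligodendrocytes, were sparse, with at most 75.8 CPM in any library.

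The share of members with a UMI was also far above that of the others for MOBP, which was detected in 50, 23.5, 79.2 and 33.3% against 0.379, 0.151, 2.43 and 0.290%. After thinning each nucleus to 1000 UMIs the shares in members became 40.0, 17.6, 71.6 and 33.3%. The order of the 4 libraries for MOBP was the same before and after thinning, with the male LPS library first and the male control last.

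Enzymes that make myelin lipids were higher in members as well. UGT8, which makes galactosylceramide, stood at 943, 500, 571 and 892 against 13.1 to 31.6 in the others. FA2H, which hydroxylates the fatty acids of these lipids, stood at 314, 652, 898 and 344 against 3.80 to 10.7, and was higher in the male libraries of both groups. ENPP2, the secreted enzyme that makes lysophosphatidic acid, stood at 475, 182, 481 and 312 against 9.62 to 17.4. In the list of lipid and fatty acid genes 3 of 4 genes past the UMI limit were higher in every library. In the list for cholesterol synthesis and uptake the count was 3 of 12, HMGCS1 and FDFT1, which encode enzymes of the pathway, among them. HMGCS1 was at 167, 90.9, 229 and 75.2 against 16.5 to 25.5, whereas the regulator SREBF2 was at 361, 197, 333 and 140 against 186 to 289 and did not separate.

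Among transcription factors of the lineage, 5 of 7 past the UMI limit (SOX6, MYRF, TCF7L2, ZEB2 and TFEB) were higher in every library. MYRF, the activator of the myelin genes, stood at 214, 743, 394 and 118 against 2.44 to 4.74. TCF7L2, a Wnt effector that peaks around the onset of differentiation, stood at 2983, 6334, 1816 and 2815 against 162 to 263. ZEB2, which promotes maturation by blocking inhibitory signals, was the most even of these across libraries, at 2642, 2046, 1999 and 2353 against 176 to 402. For MYRF and TCF7L2 the male control had the highest level.

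Premyelinating genes were higher in members alongside late ones. Of 13 listed premyelinating genes past the UMI limit 10 were higher in every library, and of 8 late genes 7 were. BCAS1 stood at 4916, 5682, 1561 and 5844 against 35 to 73.7, and was about as high in the female LPS library as in both controls. ENPP6, a choline phosphodiesterase of newly formed oligodendrocytes, stood at 555, 1136, 443 and 602 against 6.78 to 10.5. TNS3, a focal adhesion protein of the same stage, stood at 1799, 6137, 1816 and 1665 against 58.3 to 91.4. FRMD4A, a scaffold protein, was at 14494, 33185, 4559 and 19315 against 1554 to 1912, and BCAS1 and FRMD4A were both lowest in the male LPS library. Of the late genes, TF, which encodes the iron carrier transferrin, stood at 716, 424, 814 and 376 against 6.58 to 14.4. PLEKHH1 stood at 455, 136, 779 and 451 against 19.1 to 34.2, and like MOBP it was lowest in the male control. CDK18, a kinase, stood at 100, 288, 211 and 64.5 against 1.14 to 2.08.

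Summed over 16 late genes (without MOG, which is in the rule), members held 2970, 1485, 4806 and 2374 CPM, and over 17 early (premyelinating) genes 39550, 67659, 15903 and 52037. The ratio of late to early was 0.0751, 0.0219, 0.302 and 0.0456. It was highest in the male LPS library and lowest in the male control, while the female LPS value lay below the female control, so the LPS and control libraries were not ordered by group. On the log2 scale the LPS to control difference was 3.79 between males and -0.72 between females. Without FRMD4A and CADM2, the genes with the most UMIs in the early list, the ratios were 0.182, 0.0592, 0.515 and 0.125, in the same order.

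Genes of contact with the axon and of process outgrowth were higher in part. NFASC, whose glial form anchors the paranodal loops, stood at 1779, 2182, 1344 and 1278 against 88.2 to 125, and 4 of 14 genes of the axoglial list (NFASC, CADM1, EPB41L2 and DLG1) were higher in every library. ANK3, an ankyrin of the node, was at 3104, 1470, 2048 and 2181 against 1300 to 1430 and was 1 log2 unit higher in the female control alone. In the cytoskeleton list 11 of 21 genes were higher. DNM3, a dynamin, was at 2836, 2303, 1660 and 2503 against 428 to 575, and SEPT7, a septin, at 2094, 1197, 1822 and 2256 against 198 to 244. FYN, a kinase that starts local translation of MBP, was at 1358, 1970, 855 and 1654 against 285 to 357.

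Receptors, hedgehog genes and transporters mostly did not set members apart. Of 11 receptor genes past the UMI limit, FGFR2 and LPAR1 were higher in every library and 1 was lower. LPAR1, a receptor for the product of ENPP2, stood at 615, 318, 278 and 333 against 10.5 to 20.8. ERBB4, a neuregulin receptor, was at 3358, 1106, 1306 and 2396 in members and at 5720, 2771, 2071 and 5549 in the others. In the hedgehog list HHIP, a decoy that binds hedgehog ligands, was the only gene of 4 higher in every library, but its level was uneven, at 1037, 45.5, 255 and 301 against 7.34 to 12.6. GLI3, a transcriptional repressor of the pathway, was lower in every library, at 100, 106, 78.2 and 279 against 308 to 623. Of 12 channel and transporter genes, SLC44A1, a choline transporter, and SLC1A1, a glutamate transporter, were higher and KCNK1 and GRIA4, a potassium channel and a glutamate receptor subunit, lower, and SLC44A1 stood at 1284, 818, 1118 and 1644 against 134 to 220.

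The 25 genes that ranked first by their smallest ratio over the 4 libraries ran from MOBP, with a smallest log2 ratio of 5.95, to TNS3, with 4.35. Besides the genes named above they included CD22, a sialic acid-binding lectin better known from B cells, at 53.5, 60.6, 174 and 75.2 against 0.418 to 1.38. PADI2, a deiminase that acts on MBP, stood at 622, 1667, 1037 and 505 against 9.50 to 28.7. CARNS1, which makes carnosine, stood at 53.5, 75.8, 243 and 43.0 against 0.449 to 1.02. FOLH1, a glutamate carboxypeptidase, stood at 234, 197, 591 and 215 against 4.25 to 6.73, so that CD22, CARNS1 and FOLH1 were each highest in the male LPS library. PDGFA, the ligand of PDGFRA, stood at 60.2, 424, 113 and 53.7 against 1.63 to 6.13 and was highest in the male control. The set also held PPP1R16B, FBXO32, TMEM132B, SHROOM4, TNS1, OLFML2A and the carboxypeptidase gene CPM, with smallest log2 ratios from 4.43 to 5.16.

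**Figure D3:**
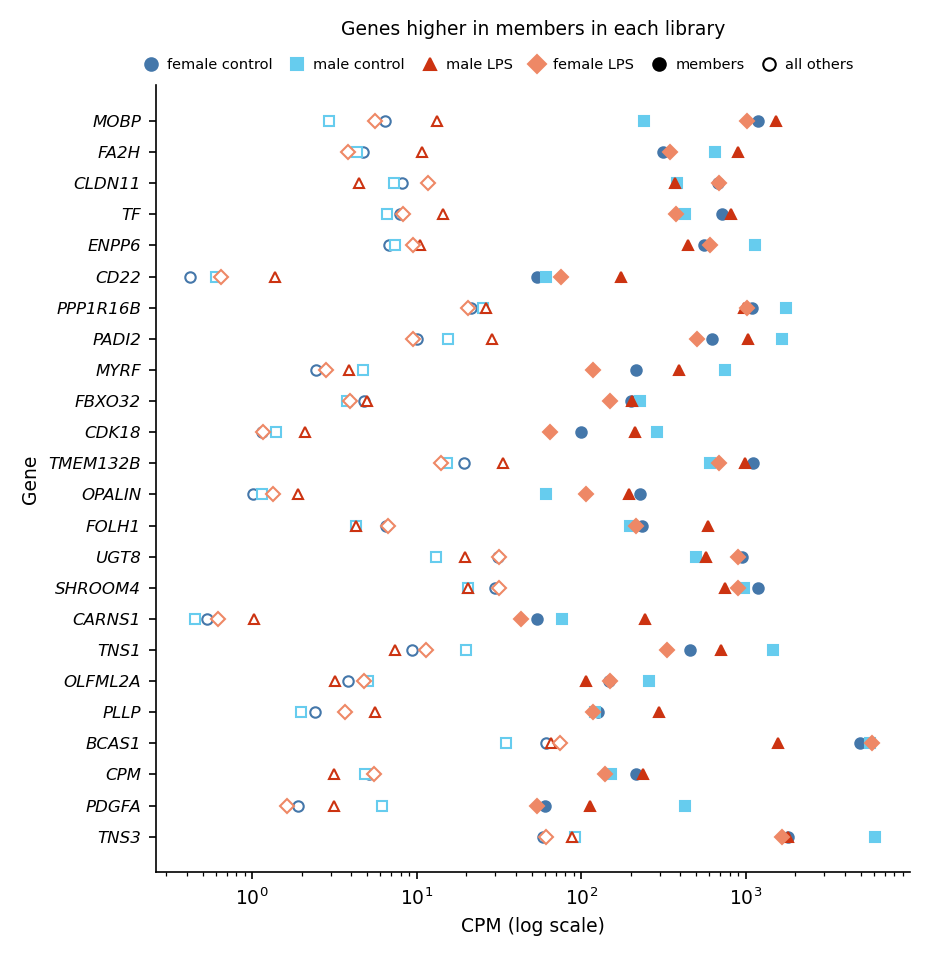
CPM (log scale) of 24 of these 25 genes in members (filled) and in all other barcodes (open), with a symbol and color for each library; genes are ordered by their smallest log2 ratio over the 4 libraries, from MOBP (5.95) to TNS3 (4.35). Filled and open points do not overlap for any of the genes shown, which were chosen for this difference.

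Of genes at 50 CPM or more in the others in every library, the 10 that ranked first as lower included genes of neurons. All 10 held under 50 UMIs over the members (4 to 44) and so were not among the 173 counted above. GABBR2, a subunit of the GABA-B receptor, was at 20.1, 15.2, 52.1 and 21.5 against 125 to 345. SCN3A, a sodium channel of immature neurons, was at 6.69, 0, 34.8 and 32.2 against 178 to 237. BCL11A, a transcription factor, SLC12A8, CERKL, ZMAT4, MTUS2, CCNJL and WNK2 were also in this set, with the ratio nearest 0 at -2.97 for SLC12A8 and -2.43 for SCN3A.

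To place the members in their lineage, they were set beside nuclei gated as precursors (at least 2 PDGFRA UMIs, at most 4 MBP UMIs, and at least 1 UMI of OLIG1, OLIG2 or CSPG4, without fibroblast transcripts), of which there were 93, 17, 27 and 62. OLIG1 was at 0 in this gate, but it was also at 0 to 0.0461 CPM in all barcodes outside the rule. It was thus scarcely counted in any nuclei and cannot speak to the gate. A PDGFRA UMI was found in 64.8, 34.3, 29.9 and 74.7% of barcodes outside the rule. The precursor gate may thus hold nuclei of other classes, and its purity was not tested. Premyelinating nuclei outside the rule were gated by at least 5 UMIs over BCAS1, ENPP6 and GPR17, of which there were 6, 14, 15 and 6. A gate of at least 3 such UMIs that also asked for MYRF held 2, 9, 8 and 4. These 3 genes, MYRF, PDGFRA and MBP chose the gates, and their levels are not results where they did. The premyelinating gate without MYRF, which is the one used below unless stated, was added after the data were seen. Of 11 precursor genes past the UMI limit, 3 (TNR, LUZP2 and SOX6) were higher in members than in all other barcodes in every library and 1 was lower. LHFPL3, a precursor gene, was at 6245, 5720, 4910 and 3350 in precursors, at 8461, 3234, 5562 and 4419 in the premyelinating gate and at 1579, 773, 571 and 1064 in members. PCDH15, a protocadherin of precursors, was at 2666, 2546, 2031 and 1683, then 3869, 2713, 2376 and 3548, then 314, 333, 243 and 247. Both were thus lowest in members in every library, and PCDH15 was named after its values were seen. LUZP2 was at 2565, 1572, 1471 and 1857 in precursors and at 1900, 576, 440 and 1171 in members, and was likewise lower in members. TNR, a tenascin of the lineage, went the other way in 3 libraries, at 374, 691, 405 and 221 in precursors and at 595, 1667, 272 and 892 in members. SOX6, a transcription factor that delays differentiation, was at 2070, 1477, 1103 and 1436 in precursors and at 1318, 1288, 446 and 2149 in members, higher in the female LPS members alone.

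Other genes were highest at the premyelinating stage or in members. NFASC was at 161, 157, 162 and 88.4 in precursors and at 671, 673, 1197 and 937 in the premyelinating gate, while in members it was at 1779, 2182, 1344 and 1278. In the gate that asked for MYRF, NFASC was at 517, 1254, 1587 and 1439, from 10, 28, 45 and 27 UMIs. Against that gate the member level was higher in both controls and lower in both LPS libraries. TCF7L2 was at 531, 707, 430 and 525 in precursors. In the premyelinating gate it was at 1187, 2974, 2820 and 4117, from 46, 137, 146 and 123 UMIs. The member level lay above this premyelinating level in both controls and below it in both LPS libraries. How many of all genes were ordered by group in this way was not counted, and the order of NFASC and TCF7L2 was not tested. MOBP was at 0 to 6.23 in precursors and at 0 in every premyelinating gate, and OPALIN was at 0 in both gates. BCAS1, which the premyelinating gates used and the precursor gate did not, was at 1218, 739, 910 and 1079 in precursors, below its member level in every library.

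**Figure D4:**
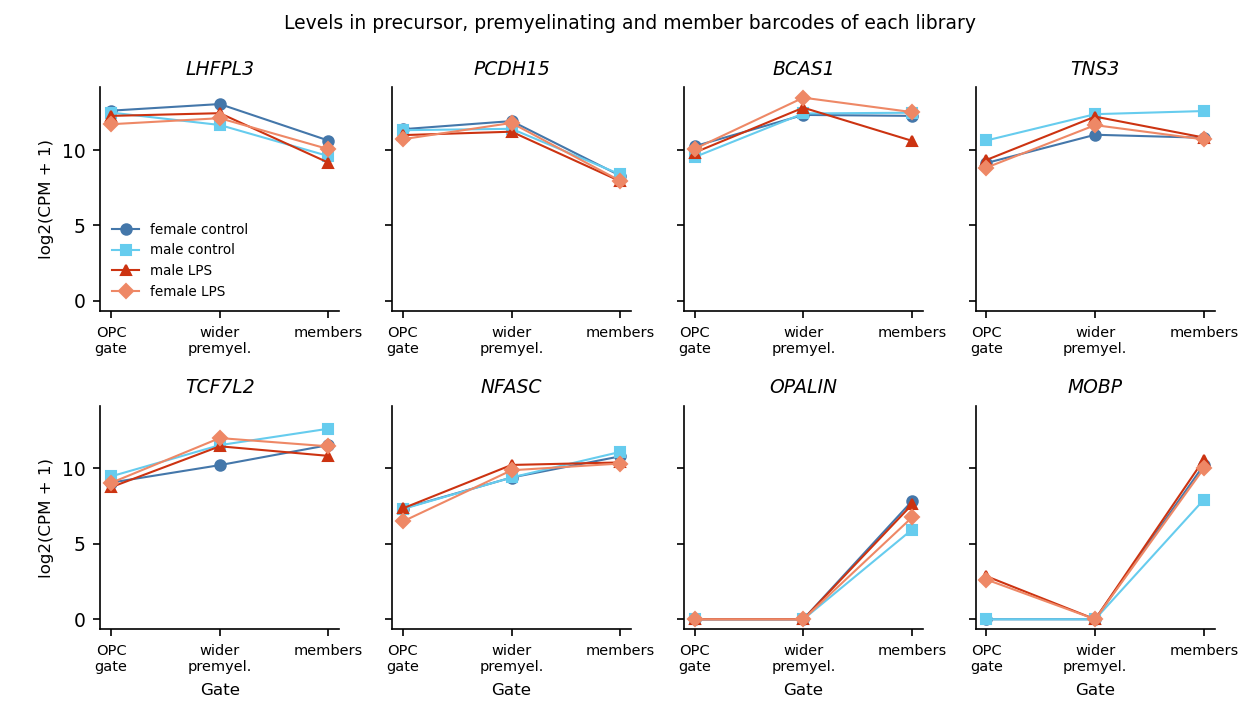
Levels as log2(CPM + 1) of selected lineage genes in the precursor gate, the wider premyelinating gate and members, with 1 line for each library. LHFPL3 is lowest in members in each library, and MOBP is at 0 in the premyelinating gate of each.

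Within the rule, members of each library were split into tertiles by MBP per 10000 UMIs. From the lowest to the highest tertile the late list went from 536 to 5329, from 498 to 3254, from 2885 to 6223 and from 106 to 5653 CPM. The early list went from 58954 to 8750, from 82334 to 43797, from 23140 to 12201 and from 44344 to 5566, with the female LPS library highest in its middle tertile of 4 nuclei, at 95931. Late genes were thus higher and early genes lower in the highest than in the lowest tertile in 4 of 4 libraries, with mean log2 differences of 3.21 and -1.89. MOBP was at 0, 0, 790 and 0 in the lowest tertile and at 2257, 881, 2351 and 2754 in the highest. The granule cell gene RBFOX3 ran the other way, from 408, 365, 1572 and 479 to 46.5, 67.8, 53.2 and 174, so that RNA of granule cells was more abundant in MBP-poor members, and its part in the pattern was not tested.

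**Figure D5:**
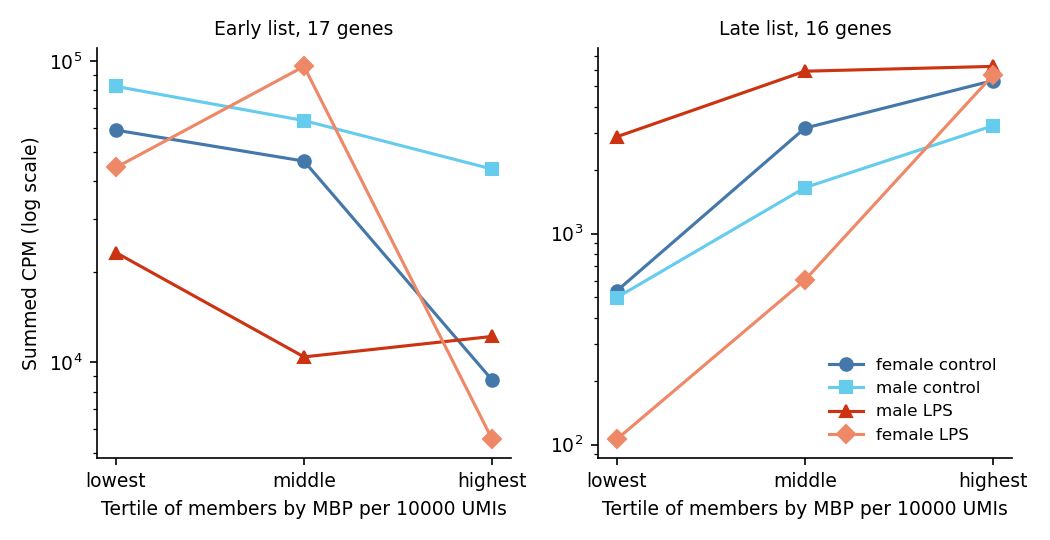
Summed CPM (log scale) of the early (left) and late (right) gene lists in the lowest, middle and highest tertile of members by MBP per 10000 UMIs, with 1 line for each library. The late list is lowest in the MBP-poor tertile of every library, and the early list is highest there in 3 libraries and in the middle tertile of the female LPS library.

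Neuronal genes were lower in members than in the remaining barcodes, though not absent, with 5 of 6 granule cell markers and 3 of 3 Purkinje cell markers past the UMI limit lower in every library. Summed over 16 granule cell markers, members held 1318, 1576, 3566 and 1869 CPM against 10335, 9052, 10642 and 9338, and the male LPS members held the most. RBFOX3 was detected in 25, 35.3, 35.1 and 41.7% of members against 82.3, 82.2, 73.3 and 80.7% of the others, and at least 2 UMIs over RBFOX3 and GABRA6 were found in 3, 3, 14 and 4 members. Astrocyte and Bergmann glia markers summed to 1010, 879, 724 and 161 against 1829 to 2225. Microglia and macrophage markers summed to 274, 318, 17.4 and 451 against 62.4 to 108, above the others in 3 libraries and below them in the male LPS library. The microglial list rested on few UMIs, with INPP5D, the phosphatase SHIP1, at 9, 7, 2 and 15. The defining fibroblast genes (COL1A2 and DCN) and endothelial genes (FLT1 and CLDN5) reached 2 UMIs in 0 members. VWF, the endothelial von Willebrand factor, nevertheless stood above the others in every library, at 87.0, 90.9, 17.4 and 53.7 against 8.14, 19.6, 6.97 and 10.9, from 13, 6, 6 and 5 UMIs, and was lower in both LPS libraries than in both controls (log2 -1.57, not called). Proliferation markers summed to 582, 45.5, 55.0 and 483 against 477, 464, 367 and 544, above the others in the female control alone. Among members they were higher in the female libraries of both groups.

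Immune and stress genes were too sparse to describe in members. Of 28 innate immune and cytokine genes in the files, STAT3 alone passed the UMI limit, at 127, 212, 110 and 75.2 against 75.1 to 152. Of 17 stress genes SGK1 alone did, at 508, 591, 345 and 516 against 240 to 277.

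The effect of intra-amniotic LPS within members was tested on the UMIs summed over the members of each fetus, with edgeR's quasi-likelihood test and Benjamini-Hochberg adjustment over 2679 genes. Genes called were 0 (0%) at an adjusted p below 0.1 and an absolute log2 fold change above 0.25, with the lowest adjusted p at 0.636 and 73 genes at an unadjusted p below 0.05. DESeq2 also called 0, with 42 genes at an unadjusted p below 0.05. Both LPS libraries lay above both controls for 411 genes (15.3%) and below both for 287 (10.7%). The sums held 149508, 65993, 345218 and 93088 UMIs, so many genes rested on a few UMIs per library. Leaving out 1 library gave 8 calls without the female control, 0 without the male control, 3 without the male LPS library and 14 without the female LPS library, with a group of 1 fetus assumed to vary like the other.

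None of the following genes, the 5 of lowest p in each direction without overlap between groups, passed the threshold in the main fit described above. With MAG and MOG both detected in each member, SPOCK1 passed it (log2 8.97, edgeR adjusted p = 0.00969). It also passed with RBFOX3 at most 1 UMI (6.08, adjusted p = 0.0861), and both values rest on at most 8 and 0 control UMIs. SPOCK1, a secreted proteoglycan, was at 53.5, 0, 371 and 397 in members against 310, 285, 672 and 298 in the others and 600 in the free RNA of the male LPS library (log2 fold change 3.42, SE 0.75, edgeR adjusted p = 0.636). CNTN6, a contactin made by granule cells, was at 20.1, 30.3, 261 and 183 (3.15, SE 0.67, adjusted p = 0.636), below its level in the others of 464, 233, 837 and 410 in every library. GSN, the actin-severing protein gelsolin, was at 107, 75.8, 1182 and 269 against 12.6 to 24.1 in the others (2.90, SE 0.73, adjusted p = 0.713). MYO1D, an unconventional myosin of oligodendrocytes, was at 134, 60.6, 591 and 419 against 133 to 172 (2.24, SE 0.56, adjusted p = 0.713). RELN, the secreted glycoprotein of granule cells, was at 53.5, 106, 443 and 258 against 1608 to 1978 (2.19, SE 0.60, adjusted p = 0.820). GSN and MYO1D thus exceeded the other barcodes in both LPS libraries, whereas CNTN6 and RELN were lower in members than in the others throughout and SPOCK1 in all but the female LPS library. GSN was at 1.45 without the male LPS library and 3.54 without the female LPS library, and SPOCK1 was at 2.74 without the male control and, with 0 control UMIs left, at 9.02 without the female control, a value that depends on the prior count. With no limit on PDGFRA the 5 values ran from 0.87 for RELN to 3.18 for SPOCK1, with GSN at 1.64, MYO1D at 1.62 and CNTN6 at 1.87.

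On the lower side, TNC, an extracellular matrix glycoprotein of astroglia, was at 181, 197, 20.3 and 10.7 (-3.44, SE 0.68, edgeR adjusted p = 0.636). RUNX1, a transcription factor of blood and microglial cells, was at 100, 424, 2.90 and 32.2, which was 15, 28, 1 and 3 UMIs (-4.50, SE 1.04, adjusted p = 0.683). MERTK, a phagocytic receptor of astroglia and microglia, was at 234, 136, 5.79 and 53.7 (-3.27, SE 0.87, adjusted p = 0.820). MKX, a homeobox factor, was at 274, 273, 66.6 and 53.7 (-2.20, SE 0.55, adjusted p = 0.713), and PLCE1, a phospholipase C, at 368, 455, 101 and 118 (-1.97, SE 0.51, adjusted p = 0.760). The others of both controls held 21.6 and 19.5 CPM of MERTK, 9.31 and 18.4 of RUNX1 and 43.3 and 23.9 of MKX. These genes were higher in members there, as was PLCE1 (181 and 162 in the others). In the LPS libraries MKX was higher in members in both, MERTK and RUNX1 in the female one alone, and PLCE1 in neither. TNC, like the astroglial list that includes it, was lower in members than in the others (217 to 446) in every library. TNC and MERTK are expressed by astroglia. The astroglial list was lower in both LPS libraries, but TNC is part of its sum, while the microglial list was lower only in the male one. Of other astroglial genes, SLC1A3 was at 435, 333, 110 and 10.7 in members. SLC4A4 was at 234, 212, 443 and 64.5, highest in the male LPS library. The part of these cells in the values was not tested. RUNX1 was at -2.95 without the male LPS library, -2.97 without the male control, -5.28 without the female control and -6.19 without the female LPS library. MERTK was at -1.85 without the male LPS library, -4.99 without the female LPS library and -2.51 without the female control, and TNC at -4.03 without the male LPS library. With no limit on PDGFRA, MKX was at -0.75, PLCE1 at -1.11, MERTK at -2.33, RUNX1 at -3.18 and TNC at -3.28.

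By gene list, the median log2 fold change with LPS was 0.26 over 7 myelin structural genes, of which 5 had positive values, against -0.00 over all 2679 genes. It was -0.07 without the male LPS library, 0.00 without the male control, 0.90 without the female control and 0.09 with no limit on PDGFRA. MAL, a raft proteolipid of myelin, at 60.2, 15.2, 136 and 96.7 (log2 1.40, SE 0.75), was the 1 gene of these 7 with both LPS libraries above both controls, beside 15.3% of all genes. MAL rested on 9, 1, 47 and 9 UMIs, and its value was 2.85 without the female control and 0.88 without the male control. It was 0.48 with no limit on PDGFRA, and MAL was too sparse to be tested without the male LPS library. MOBP had a log2 fold change of 0.76 (SE 0.72), with overlapping groups. Its value was 2.34 without the female control, 0.01 without the male control, 0.43 without the male LPS library and 0.95 without the female LPS library. With no limit on PDGFRA it was 0.25. The premyelinating list had a median of -0.66, with 1 of 13 genes positive. Without the male LPS library this became -0.16, with 5 of 13 positive, without the male control -0.19 and without the female LPS library -1.19. With no limit on PDGFRA it was -0.08, with 4 of 13 positive. The precursor list had a median of -0.58, with 1 of 11 positive, and of -0.38 without the male LPS library, -0.35 without the female control and -0.32 without the male control. With no limit on PDGFRA it was -0.02, with 5 of 11 positive, so that neither list kept its shift under that rule. With MAG and MOG both detected the premyelinating median was -0.70 (1 of 13 positive) and the precursor median -0.97 (1 of 9). With RBFOX3 at most 1 UMI these medians were -0.51 (2 of 13) and -0.41 (2 of 9). TCF7L2 was the 1 of 7 transcription factors below both controls in both LPS libraries (log2 -1.06, SE 0.75, and -0.21 with no limit on PDGFRA). Of 14 axoglial genes 1, NFASC, was below (-0.65, SE 0.62) and 4, NCAM1, ANK2, SPTBN1 and TJP1, were above, beside 10.7% and 15.3% of all genes. BCAS1 overlapped between the groups, with a value of -0.55 (SE 0.82) that became 0.09 without the male LPS library and -1.85 without the female one. The late genes had a median of 0.00, which ran from -0.56 without the male LPS library to 1.30 without the female control. Granule cell markers had a median of 1.00, with 5 of 5 tested genes positive, and of 0.22 without the male LPS library, 1.83 without the male control and 1.64 without the female LPS library. The free RNA share was largest in the male LPS library, and its part was not tested.

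To ask whether an LPS difference was particular to members, the effect in members was set against the effect in all other barcodes of the same 4 fetuses, in 1 edgeR quasi-likelihood fit with each fetus as a term. Of 14664 genes tested, 24 (0.164%) were called, 14 with a higher and 10 with a lower effect in members, and 495 had an unadjusted p below 0.05. Genes entered by their counts in the sums of members and of others together, whereas 2679 passed the filter on members alone. Many of the 14664 were thus scarcely measured in members, and SLC5A11 was not among the 2679. The fit also assumed the same spread for sums of members and of others, so its p-values may understate that of members. SLC5A11, a sodium-coupled inositol transporter of mature oligodendrocytes, had the lowest p. Its level in members was 6.69, 0, 287 and 75.2 against 13.4 to 21.9 in the others, a difference of 5.73 on the log2 scale (SE 1.03, adjusted p = 3.42e-04), from 1, 0, 99 and 7 UMIs. GSN had a difference of 2.71 (adjusted p = 0.00145). PEX5L, which regulates pacemaker channels, was at 140, 45.5, 660 and 236 against 32.7 to 54.6 (2.47, adjusted p = 0.00795). SPOCK1 had a difference of 2.84 (adjusted p = 0.0128) and MYO1D one of 2.11 (adjusted p = 0.0481). In 2 of the called genes, ST6GALNAC5 and ADAMTS17, the members of both controls held 0 UMIs.

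The effect was lower in members for SEMA3E, a guidance cue, at 408, 303, 605 and 140 in members against 11.9, 3.59, 79.5 and 7.58 in the others (-2.27, edgeR adjusted p = 0.0100). Here the others' level was highest in the male LPS library. CDH7, a cadherin, was at 829, 576, 298 and 301 against 71.5 to 133 (-1.88, adjusted p = 0.0475), from 124, 38, 103 and 28 UMIs. SLC1A3, the glutamate transporter of astroglia, was at 435, 333, 110 and 10.7 against 320 to 549 (-2.02, adjusted p = 0.0910), and MERTK, TNC and RUNX1 had differences of -3.16, -2.65 and -3.75.

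The count of 24 changed with the libraries and nuclei used. Without the male LPS library 3 genes were called, of which SPOCK1 (3.53) and SLC1A3 (-5.21) were among the 24. Without the female LPS library 35 were called, with 15 of the 24 among them. Restricting members to those with at most 1 RBFOX3 UMI (18, 14, 63 and 8 nuclei) left 3, all among the 24, namely SLC5A11 (5.39), SPOCK1 (5.70) and KCNAB1 (13.80). KCNAB1, a potassium channel subunit, had 0 UMIs in the female control, and its fitted value depends on the prior count and is not a fold change. SPOCK1, with 8, 0, 128 and 37 UMIs, was no longer called without the male control (2.22, edgeR adjusted p = 0.399) or without the female LPS library (2.36, adjusted p = 0.215). Subtracting the estimated free RNA left 18 calls, 9 of them among the 24. Dropping the PDGFRA limit gave 15 calls, 7 of them among the 24.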

How the data were processed

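Counts were used as deposited: per the labels, the authors aligned 10x Genomics 3' (version 3.1) single-nucleus reads to Mmul_8.0.1 with introns included and counted UMIs per gene and barcode. The labels name Cell Ranger 5.0, and the submitters' processing notes version 4. The deposited counts hold all barcodes, before any filter or removal of free RNA. Of 30807 genes, 9483 had no symbol, and 887 symbols came from a reference table. SOX10, among others, has no entry under its name and was not analysed here. UMIs were summed over the members and over all other barcodes of each library. Members had at least 500 genes, as the rule states.

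LPS was compared with control by edgeR 4.0.16 (glmQLFit and glmQLFTest on the 4 sums, filterByExpr, TMM), with calls at adjusted p below 0.1 and absolute log2 fold change above 0.25, and by DESeq2 1.42.0 as an alternative. The interaction was fitted on 8 sums with fetus as a term. P-values of the permutation tests and of the fits within members measure the spread between fetuses of a group. The interaction fit uses the same dispersion (spread beyond counting error) for sums over members and over all others, which differ widely in nuclei. Its SE can lie below that of the fit within members (GSN, 0.52 against 0.73), so its p-values may understate the spread of members. Shares were compared by exact permutation tests in scipy 1.17.1. Doublets were marked with Scrublet in scanpy 1.11.5 and kept. The fits were also run on simulated counts. Members and others were simulated with the same dispersion, so that run could not test the equal spread assumed by the interaction fit. Members, gene lists and tests were chosen with earlier results of these data known. Named genes were the 25 highest by ratio to the others (50 or more UMIs over members) and 10 lowest (50 CPM or more in the others in every library), the genes called (or the 5 of lowest p each way without overlap), and the 4 of highest level in each of 24 lists, some of which are given as counts. Genes named outside these as examples were chosen after their values were seen. Alternatives covered normalization, filters, the rule, free RNA, doublets and leaving out each library. Some genes are not reported here.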

Additional observations from a re-analysis of the deposited data

Results flagged for a closer look

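The share of members and the ratio of late to early genes differed with LPS in opposite directions in the 2 sexes under the rule as given. The log2 ratio of the share, LPS over control, was -0.31 in females and 2.32 in males. The 95% intervals of the female shares overlapped, and the female value was 0.02 with no limit on PDGFRA and -0.04 both with MBP at 3 or more UMIs and after thinning, so its direction did not hold. That of the late to early ratio was -0.72 in females and 3.79 in males. With 1 fetus for each sex and group the difference between the sexes was not tested, and sex cannot be told apart from the fetus. The male LPS library also had the largest free RNA share (20.1%) and the latest gestational age (133 days).

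For 23 named genes the edgeR interaction term differed between members and all other barcodes, as the LPS effect in members minus that in the others on the log2 scale. The difference was above 0 for SLC5A11 (5.73), RGS6 (3.93), KCNAB1 (3.55), FGF13 (3.15), SPOCK1 (2.84), GSN (2.71), PEX5L (2.47), ARHGAP22 (2.24), MYO1D (2.11), SERPINI1 (2.07) and SAMD5 (1.92). It was below 0 for YWHAH (-4.30), RUNX1 (-3.75), NPAS2 (-3.46), MERTK (-3.16), TNC (-2.65), SEMA3E (-2.27), SLC1A3 (-2.02), CDH7 (-1.88) and ABR (-1.83). RGS6 rested on 1, 1, 114 and 6 UMIs in members, KCNAB1 on 0, 2, 37 and 6, and FGF13 on 2, 2, 35 and 20. KCNAB1 and FGF13 were lower in members than in the others in every library, and RGS6 in all but the male LPS library. YWHAH, from 9, 6, 1 and 1 UMIs, and NPAS2, from 6, 19, 5 and 1, were also sparse. The fitted values of ST6GALNAC5 (13.38) and ADAMTS17 (12.49), with 0 UMIs in the members of both controls, and of PDZRN3 (-12.43), with 0 in the members of both LPS libraries, depend on the prior count and are not fold changes. ST6GALNAC5 was at 0, 0, 130 and 53.7 CPM in members against 298 to 449 in the others, and PDZRN3 at 60.2, 90.9, 0 and 0 against 66.1 to 122. ARHGAP22, a regulator of Rac, was at 26.8, 152, 547 and 150 against 19.4 to 26.4.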

How the results depend on the processing

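The log2 ratio of mean shares was between 1.24 and 1.84 under the other rules for members, and between -0.25 (without the male LPS library, where its direction turned) and 2.26 when 1 library was left out. Of genes tested for LPS within members 0 were called, against 11 with no filter on low counts, 0 to 14 when 1 library was left out, and 1 under each of 4 stricter rules for members (MBP at 10 or more UMIs, MAG and MOG both detected and RBFOX3 at most 1 UMI among them), each time SPOCK1. For the difference of the LPS effect, 24 genes became 10 with no filter, 3 to 35 when 1 library was left out, 3 with RBFOX3 at most 1 UMI and 15 with no limit on PDGFRA. Against precursor and premyelinating barcodes alone, 189 genes were higher and 91 lower in members, and the smallest log2 ratio of BCAS1 was -0.28, where the premyelinating barcodes were gated on BCAS1 itself. The cause of the other changes was not tested, beyond the fewer genes, samples or nuclei each setting leaves. Of 230 values of the named interaction genes 124 fell short of the threshold under a setting, with 0 changes of direction. The settings on PDGFRA, RBFOX3, droplets of up to 400 UMIs and the wider premyelinating gate were chosen after seeing the data. The replicate numbers of the labels pair no fetuses, so the main fit was unpaired. An alternative edgeR fit took the sex of the fetus as a block, which sets each LPS fetus against the control of its sex. In that fit 0 genes were called for LPS and 120 had an unadjusted p below 0.05.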
